A study of Homo sapiens with 30 samples.

Results

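Chromatin accessibility around the genes of the Nodal pathway was examined in human embryonic stem cells with and without the transcription factor HNF6 (ONECUT1) during differentiation toward pancreas. The loci were those of the ligand NODAL, its co-receptor TDGF1, the secreted antagonists LEFTY1, LEFTY2, CER1 and FST, and the intracellular inhibitor SMAD7. A deposited region was taken as a member when any base of it lay within 100 kb of the start site of 1 of these 7 genes on hg19. Of 112903 deposited regions, 150 met this rule. They were 112 of the 89929 regions listed as differing between genotypes and 38 of the 22974 regions of the wild-type clusters. The rule uses position alone, and the start sites were given to the nearest kb, so distances hold to within 500 bp. The nearest region outside the rule lay 102.45 kb from TDGF1 and was listed at DE with control values of 381, 177 and 254 and knockout values of 90, 187 and 165. The outermost region inside it lay 99.5 kb from TDGF1, also at DE, with control values of 222, 134 and 193 and knockout values of 472, 202 and 240.

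Accessibility was assayed by ATAC-seq, which marks open DNA by the insertion of adapters by a transposase, in HUES8, an established embryonic stem cell line. The 30 samples form 10 groups of 3, with wild-type cells as the control and HNF6 knockout cells, each sampled at 5 stages of the same in vitro course. The stages were ESC (undifferentiated), DE (definitive endoderm), GT (primitive gut tube), PE (pancreatic endoderm) and PP (pancreatic progenitor). The labels do not say how many knockout clones were used or whether a group's 3 samples were differentiated separately, and the spread within a group may therefore be technical. Each listed region carries 6 whole numbers, 3 per genotype, which are called values here because no source says whether they are reads or scaled reads. Their order carries no sample name, and the depth of the samples is unknown. The stages could not be checked against marker gene levels, and the deletion at HNF6 itself was not examined, because no gene annotation of hg19 was used here.

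NODAL is a secreted ligand of the TGF-beta family that signals through activin receptors, with TDGF1 (also called CRIPTO) as the co-receptor, to SMAD2 and SMAD3. It helps keep human embryonic stem cells undifferentiated and, at stronger signal, directs them to endoderm. LEFTY1, LEFTY2 and CER1 are targets of the pathway that block it from outside the cell, follistatin (FST) binds activin, and SMAD7 blocks the receptors from inside, so the loci hold several negative feedback arms.

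CER1, FST and SMAD7 are shown by their promoters because a listed region covered or came within 50 bp of the start site that the rule gives them. LEFTY2 had such a region too but no entry in the RefSeq promoter table, which held 5 of the 7 genes. The sequences are the 250 bases before the RefSeq start on GRCh38.p14, a build other than that of the regions, so regions cannot be placed on them base by base. Capitals mark matches to the motifs searched, and SMAD7 is shown at 1 of its 3 RefSeq starts, the one at the 5′ end of the gene.
CER1 (chr9:14722734-14722983, minus strand): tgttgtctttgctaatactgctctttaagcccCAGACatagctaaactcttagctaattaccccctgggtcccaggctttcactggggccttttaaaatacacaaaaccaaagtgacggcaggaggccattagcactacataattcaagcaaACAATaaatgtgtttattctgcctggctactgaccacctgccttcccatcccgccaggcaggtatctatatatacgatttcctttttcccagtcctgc
FST (chr5:53480379-53480628, plus strand): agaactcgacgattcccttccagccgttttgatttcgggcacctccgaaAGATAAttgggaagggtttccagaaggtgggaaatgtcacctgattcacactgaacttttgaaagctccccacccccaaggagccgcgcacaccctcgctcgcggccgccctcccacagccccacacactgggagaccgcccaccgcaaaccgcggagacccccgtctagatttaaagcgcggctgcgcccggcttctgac
SMAD7 (chr18:48950966-48951215, minus strand): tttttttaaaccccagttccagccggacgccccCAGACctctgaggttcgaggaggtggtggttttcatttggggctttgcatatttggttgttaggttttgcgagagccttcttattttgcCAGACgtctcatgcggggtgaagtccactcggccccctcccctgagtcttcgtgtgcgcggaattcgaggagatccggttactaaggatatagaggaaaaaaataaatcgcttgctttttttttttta
The CER1 sequence held the SMAD motif CAGAC at position 33, counted from its first base, and the SOX17 motif ACAAT at position 153. In the FST sequence, the GATA factor motif AGATAA lay at position 50. SMAD7 had CAGAC at positions 34 and 123. The search covered both strands of 300 bases, 250 before and 50 after the start, and no motif overlapped another match in these genes. Among 35116 promoters of that length in the table, CAGAC occurred in 45.3%, ACAAT in 27.4% and AGATAA in 10.3%. The FOXH1 motif TGTGGAT (2.73% of promoters) and the HNF6 motifs ATCAAT (6.26%) and ATCGAT (0.763%) had no match in the 5 promoters. A match is a run of letters and does not show binding.

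The direction of the listed differences changed with the stage. Over all windows, 23 of 31 listed regions were higher in control cells at ESC, or 74.2% (95% Wilson interval 56.8% to 86.3%), against 42.6% of all 20056 listed regions. At DE 6 of 23 were higher in control, or 26.1% (12.5% to 46.5%), against 37.2% of all. Without the LEFTY pair 6 of 12 were higher in control at DE, so the other loci together had no lean there. GT had 3 of 9, or 33.3% (12.1% to 64.6%), against 27.0%. PE had 8 of 12, or 66.7% (39.1% to 86.2%), against 56.1%. At PP 5 of 37 were higher in control, or 13.5% (5.91% to 28.0%), against 11.3% of all listed regions. The intervals cover counting error only. Only at ESC did the interval of the members leave out the share over all regions, and no test was made of that difference. The largest counts of 1 direction at 1 stage were at NODAL with 10 regions higher in control at ESC, the LEFTY pair with 11 higher in the knockout at DE, and SMAD7 with 20 higher in the knockout at PP.

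**Figure D1:**
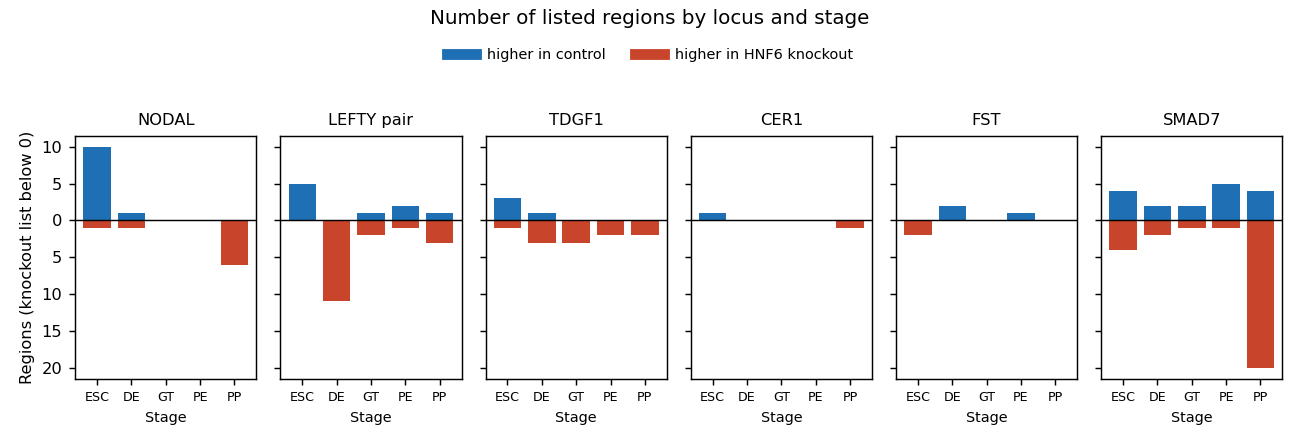
Number of listed regions within 100 kb of each locus (y axis, control list above 0 and knockout list below 0) at the 5 stages (x axis). The tallest bars are the 10 control regions of NODAL at ESC, the 11 knockout regions of the LEFTY pair at DE and the 20 knockout regions of SMAD7 at PP.

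As a background for these counts, the genome was divided into 12630 bins of 200 kb, the width of a window, that held any deposited region. A region of the control list lay in 28.1% of bins at ESC, 38.6% at DE, 18% at GT, 36.9% at PE and 17.0% at PP. For the knockout lists the shares were 53.7%, 39.7%, 33.2%, 24.5% and 64.4% in the same order. A window holding 1 such region is therefore common. The share of bins with at least as many regions as a window was computed only for the largest counts named above.

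The differences around the genes were of moderate size. Members differed by a median of 0.74 on the log2 scale, less than the 0.94 of all listed regions, and 31 of 112 differed by 2-fold or more, against 45.4% of all listed regions. The members were wider, with a median of 975 bp against 750 bp. In 85 of the 112 members the 3 control and 3 knockout values did not overlap, against 78.5% of all listed regions. Those 85 have the smallest two-sided exact permutation p that 3 against 3 values allow, 0.1, so this test can single out no region. Sets without overlap made up 19 of 23 members of the control list at ESC (73.9% over the whole list) and 5 of 8 of the knockout list (77.7%). At DE they were 4 of 6 members of the control list (79.9%) and 12 of 17 of the knockout list (76.1%). GT had 3 of 3 (82.7%) and 5 of 6 (82.5%), and PE had 6 of 8 (79.5%) and 2 of 4 (74.9%). At PP they were 5 of 5 members of the control list (82.5%) and 24 of 32 of the knockout list (79.4%). All log2 ratios here are of the means of 3 values with 1 added to each mean. Leaving out 1 of the 3 positions from both sets moved 46 of the 112 by more than 1.5 times, and for the named ones among them the lowest and highest log2 difference so obtained stands in parentheses after the value. The same position was left out of both sets, although their order pairs no samples. Other combinations were not tried and could give a wider range.

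**Figure D2:**
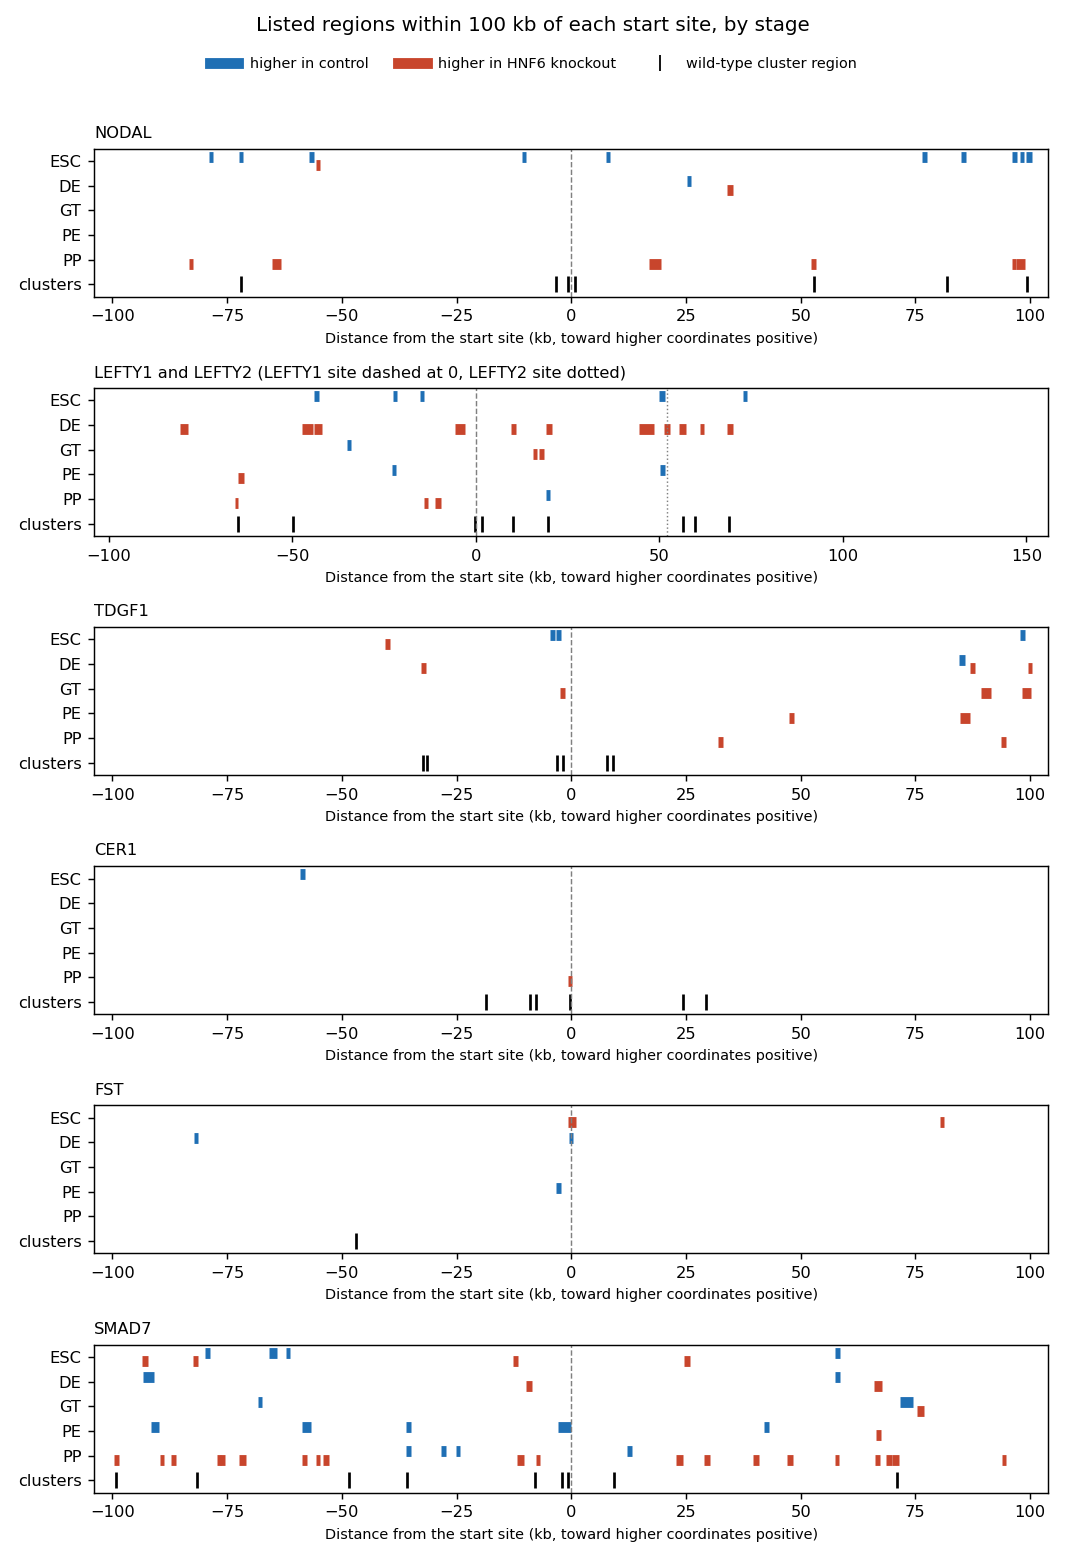
Listed regions (bars) by stage (y axis) along each window, in kb from the start site (x axis, higher coordinates positive), with wild-type cluster regions as ticks. Regions shorter than 1 kb are drawn 1 kb wide. In the LEFTY panel the 11 bars at DE are all of the knockout list, and in the NODAL panel GT and PE are empty.

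NODAL, the ligand, had 19 listed regions in its window (chr10:72101000-72301000), nearly all at the first and last stages. At ESC 10 were higher in control cells and 1 in the knockout, at DE 1 in each direction, at GT and PE none, and at PP 6 in the knockout and none in control. At least as many control-list regions at ESC were found in 0.523% of the bins. No region of either list lay in 56.9% of bins at GT and 49.6% at PE, so the empty stages were common. Of all listed regions on chromosome 10 at ESC, 49.8% were higher in control, and so were 25 of 39 between 100 kb and 1 Mb from NODAL (64.1%).

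The ESC region nearest to the NODAL start lay 7.6 kb away (chr10:72208551-72209000), with control values of 55, 106 and 103 and knockout values of 16, 32 and 36. Every control value was above every knockout value, and the difference was 1.62 on the log2 scale. On the other side, 10.1 kb away (chr10:72190201-72190900), control values were 186, 321 and 160 and knockout values 140, 89 and 88. Here too the sets did not overlap, with 1.07 (0.60 to 1.43) on the log2 scale and the highest score of the 10, a -log10 p of 8.32 in the authors' deposited table. These were the only 2 of the 10 within 50 kb of the start. Of the other 8, 5 lay more than 75 kb away toward higher coordinates, within 23.9 kb of each other. The 10 regions differed by 0.50 to 1.71 on the log2 scale, with a median of 1.15 against 0.75 over the whole control list at ESC.

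At PP the strongest NODAL region was 96.9 kb from the start (chr10:72297901-72299900), with control values of 338, 328 and 242 and knockout values of 673, 566 and 468. The sets were far apart, at 0.91 on the log2 scale higher in the knockout, and in the authors' deposited table its -log10 p of 16.4 ranked 421 of 24770. The PP region nearest to the start, 17.0 kb away (chr10:72217951-72220650), had control values of 594, 607 and 469 and knockout values of 694, 744 and 945, a log2 difference of 0.51 (0.26 to 0.65). In all 6 PP regions the sets were separate, with differences of 0.51 to 2.12, and the third control value was the lowest of the 3 in each (39.9% over the whole list). Chromosome 10 as a whole was tilted the same way at PP, with 95.4% of its listed regions higher in the knockout, and 50 of 51 between 100 kb and 1 Mb from NODAL. What share the chromosome-wide tilt has in the count was not tested.

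The far end of the NODAL window was listed in opposite directions at ESC and PP. At chr10:72298751-72299550 the ESC control values were 247, 283 and 204 and the knockout values 108, 140 and 190, or 0.74 higher in control on the log2 scale. This region lies inside the strong PP region above, which was 0.91 higher in the knockout. Beside it, chr10:72297101-72298050 at ESC had control values of 580, 769 and 487 and knockout values of 518, 445 and 338, with 1 knockout value above the lowest control value (log2 0.50, or 0.32 to 0.68). The overlapping PP region chr10:72297001-72297500 had low values, 68, 60 and 37 in control and 149, 88 and 130 in the knockout, and was 1.14 higher in the knockout.

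At DE the NODAL window had 1 region in each direction. The nearer one, 25.2 kb from the start (chr10:72226201-72227050), had control values of 219, 169 and 188 and knockout values of 134, 91 and 86, or 0.88 higher in control with separate sets. The other, 34.0 kb away (chr10:72234951-72236200), had control values of 164, 154 and 244 and knockout values of 455, 288 and 233. It was 0.79 (0.39 to 1.22) higher in the knockout on the log2 scale, with the lowest knockout value below the highest control value.

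**Figure D3:**
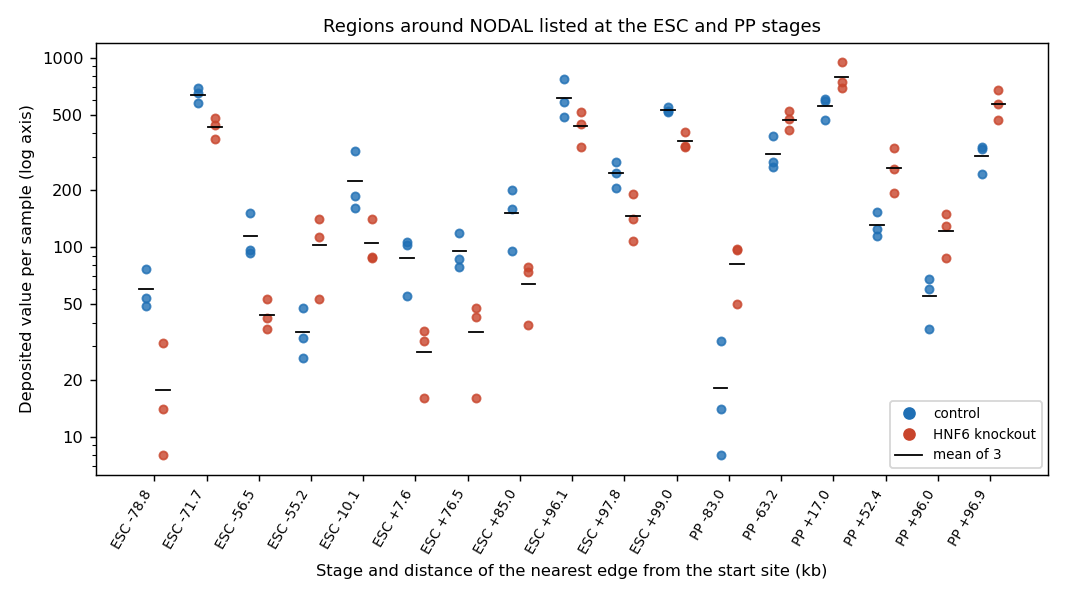
Deposited values (y axis, log scale) of the NODAL regions listed at ESC and PP, ordered by stage and distance from the start (x axis, kb). Points are the 3 control and 3 knockout samples and bars their means. Control points lie above knockout points in 9 of the 10 control-list regions at ESC, and below them in all 6 regions at PP.

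TDGF1, which encodes the membrane-anchored co-receptor of NODAL, had 15 listed regions in its window (chr3:46519000-46719000). The RefSeq promoter table holds 2 entries for TDGF1, and distances here are from the start site of the rule. Whether a region covers another RefSeq start was not examined. At ESC 3 were higher in control and 1 in the knockout. From DE on the knockout list led, with 3 regions against 1 at DE and 3, 2 and 2 against none at GT, PE and PP. In the bin background 33.2% of bins at GT, 24.5% at PE and 64.4% at PP hold at least 1 region of the knockout list. Bins with as many as TDGF1 had were not counted. Chromosome 3 as a whole had 80.0%, 68.5% and 94.0% of its listed regions in the knockout lists at those stages, but 42.1% at DE. Between 100 kb and 1 Mb from TDGF1, 29 of 40 listed regions were higher in control at ESC. The knockout lists held 20 of 34 there at DE, 15 of 17 at GT, 27 of 29 at PE and 38 of 45 at PP. The surroundings of TDGF1 thus changed direction in the same way, and their part in its counts was not tested.

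Before the TDGF1 start, adjoining regions that share only a short stretch at their edges were listed in opposite directions at ESC and GT. At ESC, chr3:46615751-46616600, 2.4 kb from the start, had control values of 714, 968 and 611 and knockout values of 678, 456 and 504. One knockout value passed the lowest control value, and the log2 difference was 0.48 (0.16 to 0.72), higher in control. At GT the partly overlapping chr3:46616501-46617600, 1.4 kb from the start, had control values of 138, 164 and 131 and knockout values of 297, 220 and 280. These sets did not overlap and the region was 0.88 higher in the knockout. The regions overlapped different wild-type cluster regions, that of ESC one of cluster 1 and that of GT one of cluster 9.

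A pair of places near the upper end of the TDGF1 window held overlapping regions of opposite direction. At chr3:46703551-46704750 the DE values were 392, 455 and 483 in control and 367, 157 and 337 in the knockout, all controls above all knockouts, by 0.63 (0.31 to 0.92) on the log2 scale. At PE the overlapping chr3:46703651-46705800 had control values of 467, 365 and 458 and knockout values of 713, 642 and 611, also separate but 0.61 higher in the knockout. The second place was listed at 3 stages. Its ESC region, chr3:46716851-46717650, had control values of 297, 137 and 154 and knockout values of 104, 124 and 64, or 1.00 (0.62 to 1.41) higher in control with separate sets. At GT, chr3:46717301-46719150 had control values of 286, 367 and 313 and knockout values of 556, 385 and 575, or 0.65 higher in the knockout, again without overlap. Its DE region is the one at the edge of the window given above, 0.73 (0.43 to 0.92) higher in the knockout with overlapping sets.

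The remaining named TDGF1 regions were of the knockout lists. At DE, chr3:46586351-46586900, 32.1 kb from the start, had control values of 42, 73 and 57 and knockout values of 179, 133 and 132, a separation of 1.35 on the log2 scale. PP had 2 regions higher in the knockout. At the first, chr3:46651001-46651850, control values were 184, 48 and 44 and knockout values 213, 134 and 209, so 1 control value reached into the knockout range, and the difference was 1.00 (0.58 to 1.88). At the second, chr3:46712701-46713450, control values were 93, 149 and 55 and knockout values 184, 247 and 194, with no overlap, at 1.07 on the log2 scale. At PE the nearest, chr3:46666551-46667100, had control values of 248, 147 and 210 and knockout values of 351, 393 and 226, overlapping sets that differed by 0.68 (0.33 to 0.91). TDGF1 has processed copies elsewhere in the genome, and the handling of reads that match more than 1 place was not given in the sources here.

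LEFTY1 and LEFTY2, neighbouring genes for secreted antagonists that keep NODAL from its receptors, lie 52 kb apart, and their windows overlap (chr1:225977000-226177000 and chr1:226029000-226229000). They held 26 listed regions, 23 of them in both windows, and are described as 1 locus. At DE all 11 listed regions were higher in the knockout, 6 nearer to LEFTY1 and 5 nearer to LEFTY2. At ESC all 5 were higher in control. GT had 1 control and 2 knockout regions, PE 2 and 1, and PP 1 and 3.

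The 11 knockout regions at DE stretched over 150.4 kb from first to last. At least as many knockout-list regions at DE lay in 0.475% of the bins. They differed by 0.36 to 0.79 on the log2 scale, or 1.29-fold to 1.72-fold, with a median of 0.54 against 0.82 over the whole list, and none reached 2-fold. In 9 of the 11 the sets did not overlap. The second control value was the lowest of the 3 in 9 of 11 (40.9% over the whole list), and the third knockout value in 9 of 11 (39.4%). Chromosome 1 was tilted to the knockout at DE, with 84.2% of its 1710 listed regions, and so were 17 of 20 regions between 100 kb and 1 Mb from the pair. Whether the chromosome-wide tilt contributes to the 11 of 11 was not tested.

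Among them, the region spanning the LEFTY2 start (chr1:226128351-226129900) had control values of 580, 444 and 491 and knockout values of 849, 1026 and 739. All 3 knockout values lay above all controls, by 0.79 on the log2 scale, and its -log10 p of 18.7 in the authors' deposited table ranked 51 of 11903. The strongest region of all members lay 3.4 kb away on the lower side (chr1:226121451-226125600). It had control values of 758, 667 and 1077 and knockout values of 1351, 1520 and 1291, separate by 0.73 on the log2 scale. In the authors' deposited table its -log10 p of 27.3 ranked 21 of 11903, within the first 0.176% of the list. Nearest to LEFTY1, 3.0 kb from its start, chr1:226071451-226074000 had control values of 827, 467 and 787 and knockout values of 1056, 965 and 935. The knockout values were close to one another and above the controls, of which the second was far lower than the others, and the log2 difference was 0.51 (0.30 to 0.64). LEFTY1 and LEFTY2 are close copies of each other, and the placing of reads that match both was not given in the sources here.

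**Figure D4:**
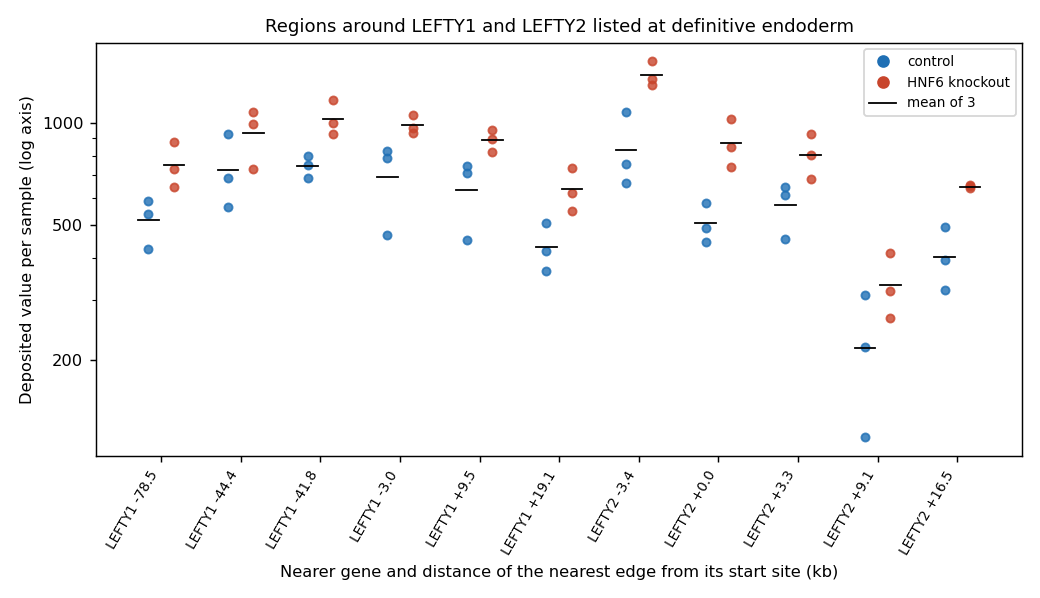
Deposited values (y axis, log scale) of the 11 regions around LEFTY1 and LEFTY2 listed at DE, in genome order with the distance from the nearer start site (x axis, kb). Points are 3 control and 3 knockout samples and bars their means. Knockout points lie wholly above control points in 9 of the 11 regions.

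At ESC the LEFTY regions went the other way. Next to the LEFTY2 start, 0.4 kb from it, chr1:226126801-226128600 had control values of 1143, 808 and 837 and knockout values of 739, 654 and 789. The sets were separate but close, at 0.35 (0.19 to 0.49) on the log2 scale higher in control. The highest-scoring LEFTY2 region at ESC, 20.9 kb from the start (chr1:226149901-226150700), had control values of 472, 337 and 572 and knockout values of 259, 301 and 255, or 0.76 higher in control without overlap. For LEFTY1 the nearest was chr1:226061751-226062450, 14.6 kb away, with control values of 168, 94 and 142 and knockout values of 26, 50 and 95. The highest knockout value there was 1 above the lowest control value, at 1.23 (0.70 to 1.76) on the log2 scale. On chromosome 1 at ESC 65.8% of listed regions were higher in control, but only 7 of 20 between 100 kb and 1 Mb from the pair (35.0%).

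Several LEFTY places were listed with opposite signs at different stages. Around the LEFTY2 start, regions were higher in control at ESC and PE and higher in the knockout at DE. Only the DE region spanned the start as given, and it shared 250 bp with the ESC region and 150 bp with the PE region. The PE region, chr1:226127101-226128500, had control values of 787, 650 and 811 and knockout values of 577, 479 and 629, all below the controls (log2 0.42). At chr1:226032951-226034200, 42.8 kb from LEFTY1, the ESC control values were 1149, 930 and 882 and the knockout values 621, 775 and 726, separate at 0.48 (0.27 to 0.59) higher in control. From the same first base, chr1:226032951-226035200 at DE had control values of 689, 752 and 801 and knockout values of 1168, 997 and 925, separate at 0.46 (0.31 to 0.59) higher in the knockout. A place 19.1 kb from LEFTY1 did so between DE and PP. At DE (chr1:226096101-226097850) control values were 419, 365 and 505 and knockout values 623, 735 and 551, or 0.57 (0.34 to 0.79) higher in the knockout. At PP (chr1:226096151-226097300) control values were 287, 243 and 357 and knockout values 162, 208 and 159, or 0.74 higher in control. Neither stage had overlapping sets there, and the place holds a cluster 2 region.

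One LEFTY1 place kept its direction over ESC and PE. At ESC, chr1:226054401-226055100 had control values of 197, 130 and 158 and knockout values of 96, 75 and 73, separate at 0.98 higher in control. At PE, chr1:226054301-226054650 had control values of 117, 143 and 23 and knockout values of 21, 46 and 43, or 1.34 (0.88 to 1.92) higher in control. There the third control value fell within the knockout range.

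At GT, PE and PP the LEFTY regions were fewer and mixed in sign. The largest difference of the locus was at GT, chr1:226042001-226042400, with control values of 93, 102 and 61 and knockout values of 49, 4 and 17, or 1.83 (1.20 to 2.84) higher in control at low values. The GT region nearest to LEFTY1, chr1:226092601-226093800, had control values of 145, 136 and 94 and knockout values of 264, 174 and 261, or 0.89 higher in the knockout. Both had separate sets. The smallest difference among all members was a PE region 63.2 kb from LEFTY1 (chr1:226012251-226013750), with control values of 1158, 872 and 1398 and knockout values of 1427, 1634 and 1183, which overlapped and differed by 0.31 (0.03 to 0.59). At PP the nearest, 9.5 kb from LEFTY1 (chr1:226065801-226067500), had control values of 237, 352 and 271 and knockout values of 510, 533 and 283, overlapping at 0.62 (0.39 to 0.82) higher in the knockout.

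CER1, a secreted antagonist that binds NODAL and marks endoderm, had 2 listed regions in its window (chr9:14623000-14823000). A total of 2 or fewer over all stages was found in 32.7% of the bins. None was listed at DE, GT or PE, as in 39.3% of bins at DE. The PP region spanned the CER1 start (chr9:14722201-14723150), with control values of 215, 182 and 132 and knockout values of 282, 252 and 327. The knockout values were all higher, by 0.70 (0.43 to 0.88) on the log2 scale, and in the authors' deposited table its -log10 p of 5.60 ranked 18693 of 24770. The ESC region, 58.8 kb away (chr9:14663901-14664250), had control values of 51, 124 and 58 and knockout values of 18, 21 and 17, or 2.0 higher in control. The sets there were far apart, though the control values themselves spread more than 2-fold.

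FST encodes follistatin, which binds activin and so keeps it from the same receptors. Its window (chr5:52676000-52876000) held 5 listed regions, 2 at ESC higher in the knockout, 2 at DE and 1 at PE higher in control, and none at GT or PP, as in 31.6% of bins at PP. On chromosome 5, 55.3% of listed regions were higher in the knockout at ESC, 75.6% in control at DE and 39.3% in control at PE. Between 100 kb and 1 Mb from FST, 2 of 2 were higher in the knockout at ESC. In control, 6 of 7 were higher there at DE and 2 of 2 at PE. The FST start itself was listed at ESC and DE in opposite directions. At ESC (chr5:52775251-52777100) control values were 482, 453 and 749 and knockout values 597, 707 and 1052. The highest control value lay above 2 of the knockout values, and the difference was 0.48 higher in the knockout. At DE (chr5:52775401-52776300) control values were 519, 425 and 276 and knockout values 169, 313 and 265, with 1 knockout value above the lowest control value, at 0.71 (0.28 to 0.97) higher in control. Neither of the FST start differences thus had separate sets. At PE, 2.6 kb before the start (chr5:52772751-52773350), control values were 280, 362 and 295 and knockout values 202, 147 and 217, separate at 0.72 (0.45 to 0.88) higher in control.

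**Figure D5:**
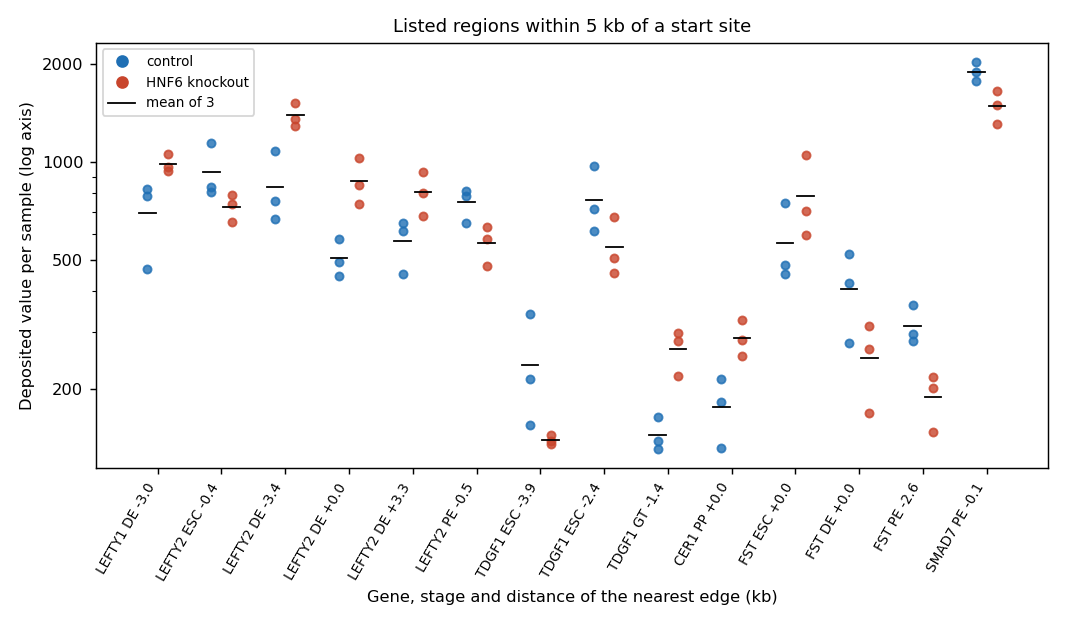
Deposited values (y axis, log scale) of the 14 listed regions within 5 kb of a start site, by gene, stage and distance in kb (x axis). Points are 3 control and 3 knockout samples and bars their means. None of the 14 belongs to NODAL, and 8 of the 14 lie at LEFTY2 or TDGF1, with knockout points higher at DE for LEFTY2 and at GT for TDGF1.

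SMAD7, which recruits ubiquitin ligases to the receptors and is itself induced by the pathway, had the most listed regions, 45 in its window (chr18:46377000-46577000). ESC had 4 in each direction and DE 2 in each, GT had 2 higher in control and 1 in the knockout, PE 5 and 1, and PP 4 and 20. At least as many knockout-list regions at PP were found in 0.174% of the bins. The listed regions of chromosome 18 were tilted in the same direction at PE, with 90.1% higher in control, and at PP, with 93.1% higher in the knockout. At the other stages they were not, with 79.9% in the knockout list at ESC, 64.2% in the control list at DE and 70.6% in the knockout list at GT, where SMAD7 had 4 and 4, 2 and 2, and 2 and 1. Between 100 kb and 1 Mb from SMAD7, 17 of 21 were higher in control at PE and 49 of 50 higher in the knockout at PP. The part of this tilt in the SMAD7 counts was not tested.

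At PP most of the knockout regions lay far from SMAD7. Of the 20 knockout regions, 14 lay more than 50 kb from the start, and the 4 control regions all lay within 50 kb, 12.2 to 35.2 kb away. The 20 differed by 0.49 to 1.87 on the log2 scale, with a median of 0.79 against 1.08 over the whole list, and 15 had separate sets. The strongest, 47.1 kb from the start (chr18:46524101-46525250), had control values of 371, 487 and 377 and knockout values of 810, 660 and 783. Its sets were far apart, at 0.87 on the log2 scale, and its -log10 p ranked 193 of 24770 in the authors' deposited table. Nearest to the start, 6.8 kb away (chr18:46469251-46470150), control values were 240, 266 and 340 and knockout values 468, 493 and 281. The third knockout value fell among the controls there, and the difference was 0.55 (0.35 to 0.92).

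The start of SMAD7 was listed at PE. The region ended 50 bp from the start (chr18:46474201-46476950) and had the highest values of any member, 1765, 1885 and 2026 in control and 1646, 1496 and 1310 in the knockout. The controls were all higher, by 0.35 (0.22 to 0.48) on the log2 scale or 1.27-fold, and the region overlapped wild-type cluster regions of clusters 8 and 6. At DE the nearest region, 8.5 kb away (chr18:46467151-46468500), had control values of 101, 189 and 220 and knockout values of 316, 292 and 312, separate at 0.85 (0.56 to 1.06) higher in the knockout. At ESC, 11.6 kb away (chr18:46464351-46465400), control values were 88, 136 and 105 and knockout values 240, 168 and 238, separate at 0.97 higher in the knockout. That place was listed again at PP (chr18:46465201-46466650), with control values of 366, 361 and 380 and knockout values of 620, 479 and 527, separate at 0.55 in the same direction.

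2 other SMAD7 places kept their direction. The first was higher in the knockout at 3 stages. At DE (chr18:46542901-46544750) it had control values of 325, 314 and 377 and knockout values of 574, 555 and 423, or 0.61 on the log2 scale. At PE (chr18:46543451-46544100) the values were 541, 839 and 800 in control and 1089, 892 and 975 in the knockout, or 0.44 (0.19 to 0.62). At PP (chr18:46543201-46544150) they were 857, 993 and 602 in control and 1221, 1176 and 1054 in the knockout, or 0.49. All 3 stages had every knockout value above every control value. The second, 35.2 kb from the start, was higher in control at PE and PP and holds a cluster 5 region. Its PE values (chr18:46441001-46441700) were 270, 393 and 403 in control and 206, 241 and 202 in the knockout, or 0.71. Its PP values (chr18:46441051-46441750) were 467, 679 and 616 in control and 413, 272 and 391 in the knockout, also 0.71 (0.43 to 0.96). Again neither pair of sets overlapped.

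3 SMAD7 places were listed in both directions. At 57.4 kb from the start a place was higher in control at ESC and DE and higher in the knockout at PP. Its ESC values (chr18:46534551-46535150) were 167, 72 and 162 in control and 60, 69 and 58 in the knockout, or 1.09. Its DE values (chr18:46534401-46535650) were 334, 277 and 343 in control and 270, 197 and 129 in the knockout, or 0.68 (0.39 to 0.92). At PP a narrow part of it (chr18:46534451-46534750) had control values of 15, 14 and 16 and knockout values of 58, 42 and 73, or 1.87 higher in the knockout at low values. All 3 had separate sets. At 56.8 kb on the other side, PE values (chr18:46418401-46420200) were 504, 588 and 405 in control and 393, 333 and 235 in the knockout, or 0.64 higher in control. From the same first base at PP (chr18:46418401-46419400) they were 99, 123 and 119 in control and 281, 198 and 193 in the knockout, or 0.97 higher in the knockout. These too were separate at both stages. The third place, 89.9 to 92.2 kb away, had overlapping sets at all its stages. At ESC (chr18:46383501-46384800) values were 246, 107 and 176 in control and 232, 276 and 369 in the knockout, or 0.73 (0.51 to 1.18) higher in the knockout. At DE (chr18:46383751-46386000) they were 567, 393 and 579 in control and 410, 326 and 324 in the knockout, or 0.54 higher in control. At PE (chr18:46385451-46387100) they were 400, 640 and 370 in control and 396, 301 and 272 in the knockout, or 0.54 (0.20 to 0.82) higher in control.

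The other SMAD7 regions with the highest scores of their stage were these. At ESC (chr18:46394501-46395750) control values were 160, 78 and 164 and knockout values 210, 269 and 322, separate at 0.99 higher in the knockout. At GT (chr18:46552251-46553900) control values were 340, 339 and 353 and knockout values 609, 446 and 527, separate at 0.61 higher in the knockout. Nearest to the start at GT was a region 67.8 kb away (chr18:46408701-46409250), with control values of 77, 114 and 109 and knockout values of 59, 13 and 34, or 1.48 higher in control without overlap.

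Over all 7 genes, 37 listed regions fell into 15 places listed at 2 or more stages, and the other 75 were listed at 1 stage. Of the 15 places, 11 were listed in both directions and 4 in 1 direction, against 48% in both directions among 9919 such places over all lists. In 8 of the 15, overlapping regions of opposite direction both had separate sets, against 28.3%. Regions at different stages were called separately and differ in width, so their levels are not comparable between stages. Close to the start sites of the rule, 4 members spanned a start, 14 lay within 5 kb and 20 within 10 kb. At DE 4 of the 5 within 5 kb were higher in the knockout, all 4 at the LEFTY genes, and at PE all 3 were higher in control.

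The wild-type cluster regions were not chosen for a difference between genotypes, though the lists they are set against were. The windows held 38 of them, and 19 overlapped a listed region, against 38.4% of all cluster regions. By stage, 4 of 38 overlapped a list at ESC (9.08% of all), 5 at DE (10.7%), 1 at GT (4.35%), 4 at PE (10.4%) and 8 at PP (13.6%). Conversely, 21 of 112 listed members overlapped a cluster region, against 10.9% of all listed regions. Cluster 9 held 14 of the 38 (36.8%), against 20.5% of all cluster regions, among them all 6 of CER1 and the 1 of FST. The numbers are those of the file names, which differ from the numbers written inside the files, and no source used here describes the pattern behind a number. At NODAL, 3 cluster regions lay within 3.1 kb of the start, of clusters 9, 9 and 7, and none of the 3 overlapped a listed region at any stage. LEFTY1 had 1 over its start (cluster 9) and 1 at 1.4 kb (cluster 5), also in no list. CER1 had 1 over its start, and that one overlapped the PP region described above.

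The windows also hold other genes, so a region within 100 kb need not act on the gene it is counted under. On GRCh38, RefSeq places LRRC20, EIF4EBP2 and PALD1 near NODAL. LTF, RTP3, LRRC2, FAM240A and ALS2CL lie near TDGF1, ZDHHC21 and FREM1 near CER1, NDUFS4 near FST, and CTIF and DYM near SMAD7.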

How the data were processed

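ATAC-seq of 30 samples was used as deposited region lists on hg19. Bowtie2 and MACS2 are named in the submitters' processing notes, without versions, and the sources used here do not give the tool that called differential regions. Each of the 10 lists of differential regions holds, as the authors deposited it, 6 whole-number values, a log2 ratio, and a -log10 p of at least 5. Whether the 6 other values are reads or scaled reads is not stated, so no count model was run, and the depth of the samples, with the precision it gives, is unknown. Which set of 3 values is control was read from the names of the lists: the second set is the higher one in every control list. The authors' deposited log2 was recomputed as the ratio of the set means with 1 added to each, and matched within 1e-10 in all 89929 regions. The 9 cluster files hold regions of 500 bp and are numbered by file name. The number written inside each file differs from that of its name.

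Regions were assigned to a gene by distance from the start sites of the rule. A region in both LEFTY windows was counted once and given to the nearer site. Overlap meant at least 1 bp. Shares have 95% Wilson intervals, and single regions a two-sided exact permutation test of 3 against 3 values. Named regions were those nearest to the start and those with the highest deposited score at each stage, and places listed at 2 or more stages. The members, lists and rules were chosen with earlier results of these data known. Alternatives were other window widths, thresholds, list lengths and merging, leaving out a position, and another added constant. Gene annotation of hg19, sequence of the regions and other pathway genes were not analysed here, and the neighbours of the LEFTY pair are not reported here. The code was tested on simulated data. Python 3.11.15, scipy 1.17.1 and matplotlib 3.10.9 were used.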

Additional observations from a re-analysis of the deposited data

Results flagged for a closer look

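In 8 places around these genes, 10 pairs of stages had every control value above every knockout value at one stage and every knockout value above every control value at the other. The values below are the log2 ratio of control to knockout at the first stage minus that at the second, and in each pair the difference was not tested. Around LEFTY1 this was 0.94 between ESC and DE for regions sharing 1250 bp, and -1.31 between DE and PP for regions sharing 1150 bp. Around the LEFTY2 start it was 1.14 between ESC and DE, with 250 bp shared, and -1.20 between DE and PE, with 150 bp shared. TDGF1 had 1.23 between DE and PE with 1100 bp shared, and 1.65 between ESC and GT with 350 bp shared. NODAL had 1.65 between ESC and PP, where the shared stretch was 800 bp. At SMAD7 one place had 1.61 between PE and PP with 1000 bp shared. Another SMAD7 place had 2.55 between DE and PP and 2.96 between ESC and PP, sharing 300 bp and 200 bp with a PP region whose control values were 15, 14 and 16. Pairs that include the same stage share that stage's samples, and the LEFTY2 and second SMAD7 pairs also share a region. Over all lists, 28.3% of places listed at 2 or more stages held such a pair, against 8 of 15 here.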

How the results depend on the processing

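The control share was recomputed under 39 alternatives besides leaving out positions, and 28 kept it within its counting interval. At ESC it was 74.2% and moved to 87.5% (7 of 8) with lists of equal length (2789 regions each). Such lists hold as many control as knockout regions at every stage, so the share over all listed regions is then set by construction. At DE it was 26.1%, and 10% within 25 kb and 0.0% at a -log10 p of at least 8. Of the 10 DE regions within 25 kb, 8 were knockout regions of the LEFTY pair, and so were all 7 at that -log10 p. Both DE values therefore rest mainly on that locus and show no lean common to the windows. At GT it was 33.3% of 9 regions and 0.0% (0 of 3) within 25 kb. The GT direction turned to 100% (2 of 2) when a log2 difference of at least 1 was asked. PE was 66.7%, and 100% both within 25 kb (4 of 4) and at that log2 difference (2 of 2). PP was 13.5%, 31.2% (5 of 16) within 50 kb, 30.0% (3 of 10) within 25 kb and 0.0% (0 of 10) at that log2 difference. With lists of equal length PP was 42.9% (3 of 7), and these no longer carry the knockout lean of all listed regions at PP. The share over all listed regions was not computed under the other alternatives. Few regions were left in several of these, and the cause was not tested. Leaving out each position in turn gave the same 74.2%, 26.1%, 33.3%, 66.7% and 13.5%, which says nothing of stability, since no region was called again and each was listed for its direction. The GT share at a -log10 p of at least 8 was not run because no region was left.

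The share of cluster regions overlapping a list moved in 11 of 40 alternatives. Raising a threshold or shortening the lists can only lower this share or leave it as it was. The share over all cluster regions was not computed under those settings, so falls under them cannot be read as particular to these windows. ESC fell from 10.5% to 3.33% within 50 kb, 2.63% at a -log10 p of at least 8 and 0.0% at the log2 difference. DE went from 13.2% to 5.26% and 2.63% at these thresholds, GT from 2.63% to 0.0% at both, and PE from 10.5% to 0.0% at the log2 difference. PP went from 21.1% to 10.5% at the -log10 p, 0.0% at the log2 difference and 7.89% with lists of equal length.

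Of the 3 large counts, the 11 LEFTY regions at DE became 10 within 50 kb, 8 within 25 kb, 7 at a -log10 p of at least 8, 9 with lists of equal length and 0 at a log2 difference of at least 1. These settings only select among listed regions. The control list held 0 there at the outset, so its 0 under them was fixed in advance. The 10 NODAL regions at ESC became 2 within 50 kb, 1 at the -log10 p, 6 at the log2 difference and 2 with lists of equal length. The 20 SMAD7 regions at PP, beside 4 of the control list, became 6 beside 4 within 50 kb, 3 beside 2 within 25 kb, 8 beside 1 at the -log10 p, 6 beside 0 at the log2 difference and 3 beside 2 with lists of equal length. Of 256 alternatives for the log2 ratios of 64 named regions, 255 stayed within the replicate spread, wide as that is with 3 values. The 1 that moved was a SMAD7 region at PP with values near 15 in control, to -1.44 with 10 added to each mean. Most of these alternatives left out a position, and the spread was taken from the same 6 values. A shift so obtained could hardly exceed that spread, so staying within it says nothing of stability. By the limit of 1.5 times, leaving out a position moved 46 of the 112 members. No paired analysis was possible because the columns of the lists carry no replicate numbers.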
